A study of Mus musculus with 12 samples.

Results

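A set of 10 genes of hepatic lipid droplets and triglyceride turnover was followed in the liver RNA of sedentary and exercised mice. Members were taken by gene symbol, not by a measured value, and were the perilipins Plin2, Plin4 and Plin5, the CIDE genes Cidea, Cideb and Cidec, the lipolysis genes G0s2, Pnpla2 and Pnpla3, and Dgat2 for triglyceride synthesis. All 10 were among the 16821 genes listed for each mouse. The study compared chronic exercise with inactivity in healthy adult male C57BL/6J mice. The sedentary control (Con) group held 6 mice without training, and the chronic exercise (Exe) group held 6 mice that ran on a treadmill for 6 weeks. The labels and methods name no engineered allele and no drug in either group, and each library came from a single mouse. Whole liver tissue, washed free of blood with saline and taken within a day of the last run, was sequenced, so hepatocytes and the other cells of the liver were measured together.

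A lipid droplet is a core of triglyceride and cholesteryl ester inside a single phospholipid layer, and its coat proteins help set how fast the core is broken down. Perilipins shield the core, CIDE proteins let droplets grow by passing lipid from a small droplet to a large neighbour, and DGAT2 makes triglyceride in the last step of its synthesis. ATGL, the product of Pnpla2, cuts the first fatty acid off triglyceride, and G0S2 binds and inhibits it. In hepatocytes these genes set how much fatty acid is stored, exported in lipoproteins or burned.

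Of these genes, 0 of 10 differed between Exe and Con mice beyond the spread between mice, and the value ranges of the 2 groups overlapped for all 10. Over all genes tested 0% passed an adjusted p of 0.05 from limma and 0.254% had groups that did not overlap, so these counts do not set the 10 genes apart. The study, which used DESeq, did report genes that differed between the groups, so the 0% holds for this test only. Among the 7 genes tested with all others, Plin2 and Plin4 had the lowest mean in Exe mice relative to Con, at 0.829 and 0.518 times the Con mean, but their Con values were spread widely. For these 7 genes, the pooled within-group SD of log2(FPKM + 1) was larger than the difference between the group means on that scale. G0s2, the inhibitor of ATGL, varied 6.11-fold over the 12 mice, while Pnpla2, the lipase it inhibits, varied 1.40-fold. Dgat2 was the most abundant of the 10 genes, and of all genes tested the clock output factor Tef had the pattern over the mice most like it. In bulk liver, fewer cells of a type and less RNA per cell cannot be told apart.

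Values are FPKM, or fragments per kilobase of transcript scaled by the authors to the mapped fragments of the library, and were deposited to 2 decimals. FPKM are corrected for transcript length, so levels of different genes can be set side by side. Summed FPKM per mouse ranged from 735200 to 820107, and between 14595 and 15066 genes were above 0. Read numbers are not known from FPKM, and the only error given is the spread between mice. The label liver was met by the data, since all 8 hepatocyte markers were detected, and their summed level ran from 56968 to 75249 FPKM in Con and from 66255 to 82371 FPKM in Exe mice. Of the fat cell genes, Adipoq reached at most 0.06, Plin1 at most 0.04 and Ucp1 at most 0.04 FPKM in any mouse. Elovl3, also on the brown adipocyte list, went the other way. It ran from 66.0 to 185 FPKM in Con and from 45.1 to 130 FPKM in Exe mice, while Cox8b reached 0.53 FPKM. The 6 listed white adipocyte markers summed to between 11.1 and 15.5 FPKM in Con and between 9.00 and 15.8 FPKM in Exe mice. Nearly all of this came from Lipe and Adrb3, which reached 8.86 and 7.26 FPKM. The muscle genes Ckm and Acta1 stayed at or below 0.05 FPKM, while Myh4 reached 0.01 and Mylpf 1.60 FPKM. Stellate cell markers summed to between 53.5 and 101 FPKM in Con and between 53.7 and 102 FPKM in Exe mice. Kupffer cell markers summed to between 130 and 243 FPKM in Con and between 90.6 and 229 FPKM in Exe mice.

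In order of mean level over the 12 mice, Dgat2 stood first with 262 ± 36.5 FPKM (SD), followed by Plin2 with 191 ± 49.2 and Cideb with 182 ± 15.3 FPKM. G0s2 had 49.4 ± 28.7, Pnpla2 34.1 ± 3.72 and Plin5 16.7 ± 2.57 FPKM. Plin4 at 1.10 ± 0.956, Cidec at 0.428 ± 0.175 and Pnpla3 at 0.203 ± 0.124 FPKM were low, and Cidea was listed at 0 or 0.06 FPKM in every mouse. Among neighbours in this order, Dgat2 was above Plin2 in 10 of 12 mice, Plin2 above Cideb in 7, and G0s2 above Pnpla2 in 8, so these neighbours were not separated in every liver. Cideb was above G0s2, Pnpla2 above Plin5, and Plin5 above Plin4 in all 12 mice, with ranges that did not overlap. Summed per mouse, the 10 genes made up between 594 and 871 FPKM.

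**Figure D1:**
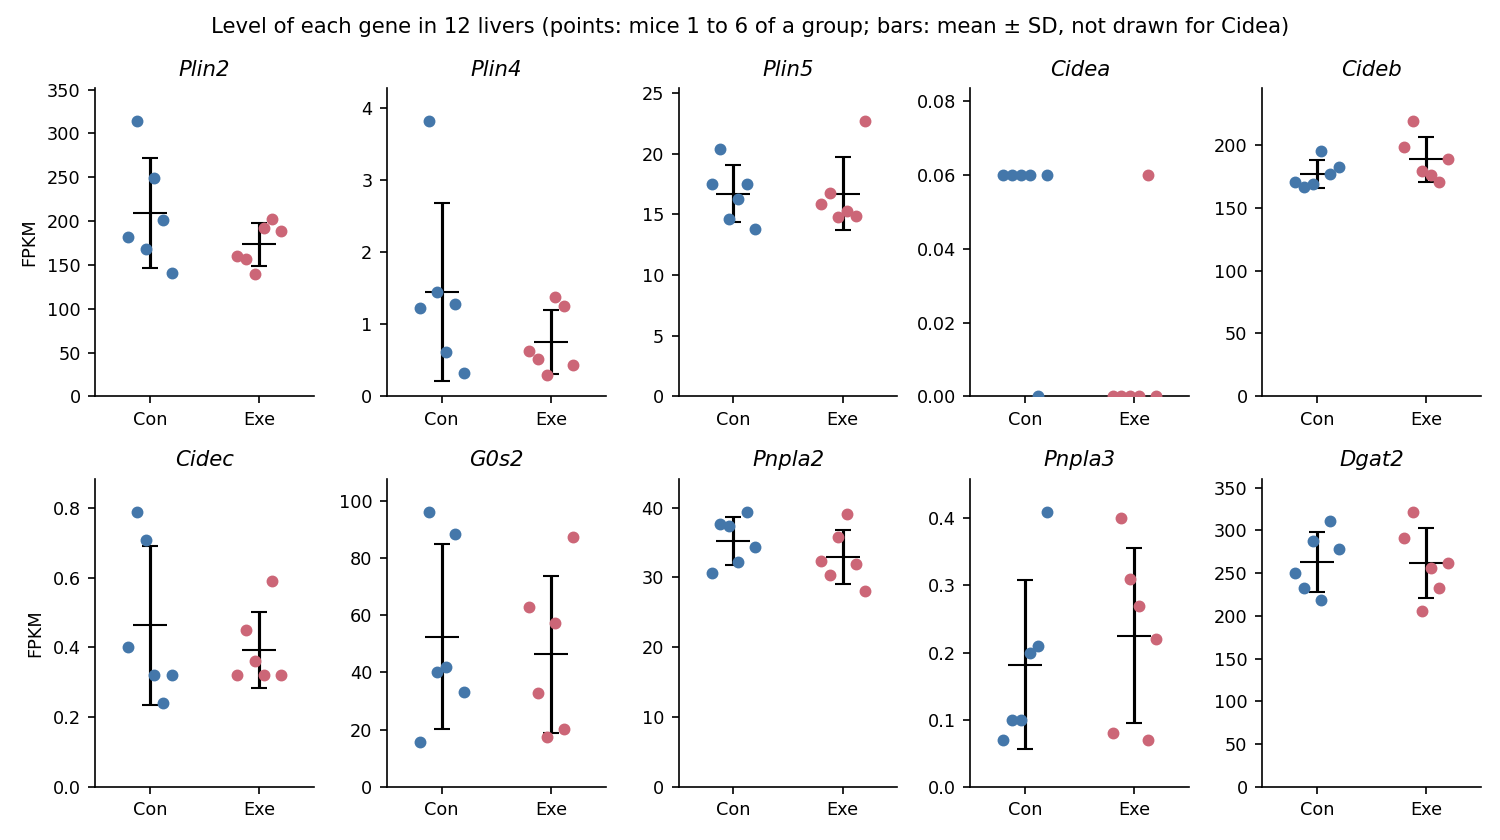
Level in FPKM (linear axis from 0) of each of the 10 genes in each mouse, Con in blue and Exe in red, with the mean and SD of 6 mice as black bars except for Cidea. The 2 groups overlap in every panel, the G0s2 points run from 15.7 to 96.1 FPKM, and Con 2 stands alone at 3.81 FPKM for Plin4.

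Of the perilipins, Plin2, the coat protein of most hepatocyte droplets and a common sign of stored lipid, had by far the highest level. It made up 89.1% to 93.7% of the summed FPKM of Plin2, Plin4 and Plin5 in each mouse. In Con mice Plin2 ran from 141 over a median of 192 to 314 FPKM, and in Exe mice from 140 over a median of 174 to 203 FPKM. Of the Con mice 2, Con 2 at 314 and Con 4 at 249 FPKM, lay above every Exe mouse, and the other Con mice lay within or near the Exe range. The mean was 209 ± 62.8 FPKM in Con and 173 ± 24.8 FPKM in Exe mice (SD, n = 6 each). The log2 fold change of log2(FPKM + 1), Exe minus Con, was -0.23 with an SE of 0.17 and a 95% interval from -0.59 to 0.13. It did not pass limma's test (adjusted p = 0.912 over all genes tested) or the exact two-sided permutation test over the 924 splits of the mice (p = 0.249).

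Plin4, a large perilipin known mainly from fat cells, was low. Con mice ran from 0.33 over a median of 1.26 to 3.81 FPKM, and Exe mice from 0.30 over a median of 0.575 to 1.37 FPKM. Con 2 and Con 3 lay above all Exe mice, and Con 2 was far from the rest of its group. With means of 1.45 ± 1.23 and 0.752 ± 0.447 FPKM in Con and Exe mice, the log2 fold change was -0.40 (SE 0.26, 95% interval -0.95 to 0.16, adjusted p = 0.896, exact permutation p = 0.221). The added 1 FPKM shrinks the change of a gene this low, and with 0.1 FPKM added the value was -0.69. Plin4 entered the comparison only just, with at least 1 FPKM in 6 of the 12 mice, 4 of them Con.

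The differences in Plin2 and Plin4 moved most with the same 2 Con mice. Without Con 2, the mouse with the highest value of both genes, the log2 fold change was -0.10 for Plin2 and -0.18 for Plin4. Without Con 6, the lowest Con mouse for both, it was -0.33 for Plin2 and -0.55 for Plin4, and both were then past an unadjusted p of 0.05 from limma (0.0491 and 0.0434), with an adjusted p of 0.890 for each. Of all genes tested, 5.19% were past the unadjusted p in that fit.

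Plin5, the perilipin of oxidative tissues that ties droplets to mitochondria, had nearly the same mean in both groups, 16.7 ± 2.34 FPKM in Con and 16.7 ± 3.01 FPKM in Exe mice. Con mice ran from 13.8 over a median of 16.9 to 20.4 FPKM, and Exe mice from 14.8 over a median of 15.6 to 22.7 FPKM. Of the Exe mice 5 lay between 14.8 and 16.7 FPKM, and Exe 6 at 22.7 FPKM was the highest of all 12. The 95% interval of the log2 fold change was -0.24 to 0.23 (exact permutation p = 0.989). Its sign turned on single mice, from -0.089 without Exe 6 to 0.054 without Con 2. Plin4 and Plin5 are next to each other in the genome, but their levels over the 12 mice were related with an r of only 0.296 (permutation p = 0.342, adjusted p = 0.513 over 21 pairs).

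Promoter sequence is shown for Plin2 and Plin4, the pair of genes whose levels were most closely related over the mice. The 250 bases before the start of each gene were taken from RefSeq (GRCm38.p6, both genes on the minus strand, sequence written 5′ to 3′ along the gene). The position is chr4:86670060-86670309 for Plin2 and chr17:56109783-56110032 for Plin4. Capitals mark motif matches on either strand. The motifs searched were AGGTCA, the half-site bound by PPAR and other nuclear receptors. The promoter element CCAAT and the GC box, which reads GGGCGG, were searched as well. The last were the E-box with the letters CACGTG and the TATA box with the letters TATAAA.
Plin2: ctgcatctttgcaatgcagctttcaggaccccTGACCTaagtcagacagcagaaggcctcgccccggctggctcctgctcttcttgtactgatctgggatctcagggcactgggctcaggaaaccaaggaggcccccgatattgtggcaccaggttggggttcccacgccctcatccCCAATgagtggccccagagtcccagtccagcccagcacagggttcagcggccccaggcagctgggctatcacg
Plin4: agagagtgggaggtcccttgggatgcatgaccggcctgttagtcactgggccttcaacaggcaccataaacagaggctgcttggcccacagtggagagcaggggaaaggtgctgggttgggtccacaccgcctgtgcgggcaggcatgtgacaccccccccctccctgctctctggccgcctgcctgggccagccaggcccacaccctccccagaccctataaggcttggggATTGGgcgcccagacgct
Plin2 held AGGTCA on the opposite strand, 218 to 213 bases before the start, and CCAAT 73 to 69 bases before it. Plin4 held only CCAAT, on the opposite strand 18 to 14 bases before the start. Over the same window of all 32851 promoters in the table, 14% held AGGTCA and 33.8% held CCAAT, so both matches are common. Neither window held the exact letters of the E-box (6.02% of all promoters) or of the TATA box (12.4%). The same goes for 2 half-sites in a row with 1 base between them, on the same strand (0.0335%). Only exact letters were searched, so a near match to the TATA box, such as TATAAG in Plin4, was not counted. These matches describe letters, not bound sites.

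Of the CIDE genes, Cideb, which loads lipid onto droplets and very low density lipoproteins in hepatocytes, made up 99.5% to 99.9% of their summed FPKM. Of the 7 genes tested with all others it had the smallest within-group SD of log2(FPKM + 1). Con mice ran from 166 over a median of 174 to 195 FPKM and Exe mice from 170 over a median of 184 to 219 FPKM. Of the Exe mice 5 lay above the Con median, and Exe 1 and Exe 2 above all Con mice. The mean was 177 ± 10.8 FPKM in Con and 188 ± 17.8 FPKM in Exe mice, with 0.089 as the log2 fold change (SE 0.067, 95% interval -0.055 to 0.23, adjusted p = 0.917, exact permutation p = 0.199). Quantile normalization between mice brought it to 0.039. Cideb overlaps Nop9 and Ltb4r2 in the RefSeq annotation, which had at most 7.59 and 1.06 FPKM. Whether the counting used strand is not stated, so these values do not show how shared reads were assigned.

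Cidec, the droplet fusion protein of fat cells that is known to rise in fatty liver, was low in all mice. It lay between 0.24 and 0.79 FPKM in Con mice (median 0.36) and between 0.32 and 0.59 FPKM in Exe mice (median 0.34). Con 2 and Con 3 were the only mice above 0.7 FPKM. The difference in mean log2(FPKM + 1) was -0.060 (exact permutation p = 0.578), and without Con 2 it was 0.0009. Cidea, best known from brown fat, was listed at 0.06 FPKM in 5 Con mice and 1 Exe mouse and at 0 in 1 Con and 5 Exe mice. As 0.06 was its only value above 0, no fold is given. Its exact permutation p was 0.0801, and stayed there without any mouse other than Con 5 or Exe 5. Without either of these, the mouse that differed from its group, it was 0.0152. This lower value follows from removing that mouse, so nothing is read from it. Cidea and Cidec were below 1 FPKM in all 12 mice, were left out of the limma comparison and are outside its counts.

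Among the lipolysis genes, Pnpla2, which encodes ATGL, differed little between mice. Con mice ran from 30.7 over a median of 35.9 to 39.4 FPKM, and Exe mice from 28.1 over a median of 32.1 to 39.0 FPKM. Of the Exe mice 5 were below the Con median, and Exe 2 and Exe 6 were below all Con mice. The mean was 35.3 ± 3.43 FPKM in Con and 32.9 ± 3.91 FPKM in Exe mice, and the log2 fold change was -0.099 (SE 0.083, 95% interval -0.28 to 0.080, adjusted p = 0.929, exact permutation p = 0.262).

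G0s2, whose product inhibits ATGL, was spread over the same wide range in both groups. Con mice ran from 15.7 over a median of 40.9 to 96.1 FPKM, and Exe mice from 17.3 over a median of 44.9 to 87.4 FPKM. Con 2, Con 5 and Exe 6 were above 85 FPKM, and Con 1, Exe 3 and Exe 5 were at or below 20.4 FPKM. The log2 fold change was -0.17 with an SE of 0.46, so its 95% interval, -1.16 to 0.82, takes in a change of more than 2-fold downward (exact permutation p = 0.747). Leaving out single mice moved it from -0.46 without Con 1 to 0.060 without Exe 3. The ratio of G0s2 to Pnpla2 FPKM was 1.44 ± 0.790 in Con and 1.45 ± 0.973 in Exe mice, and lay between 0.484 in Exe 3 and 3.11 in Exe 6.

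The 250 bases before the G0s2 start (RefSeq, GRCm38.p6, chr1:193273189-193273438, minus strand, 5′ to 3′ along the gene) are shown because G0s2 had the largest within-group SD of these genes. Capitals mark the same motifs.
G0s2: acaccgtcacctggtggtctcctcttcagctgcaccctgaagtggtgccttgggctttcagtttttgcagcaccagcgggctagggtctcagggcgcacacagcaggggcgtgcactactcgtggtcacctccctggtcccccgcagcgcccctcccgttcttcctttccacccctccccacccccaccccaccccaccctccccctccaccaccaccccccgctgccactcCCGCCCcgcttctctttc
The window had a GC content of 67.2%, against a median of 52.4% over all promoters of the table. Its only match was a GC box, GGGCGG on the opposite strand 18 to 13 bases before the start, which 32.7% of all promoters hold.

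Pnpla3, a droplet enzyme known from human fatty liver, lay between 0.07 and 0.41 FPKM in Con mice (median 0.15) and between 0.07 and 0.40 FPKM in Exe mice (median 0.245). Con 6 and Exe 2 had the highest values, and both groups had mice at 0.07 FPKM. The difference in mean log2(FPKM + 1) was 0.051 (exact permutation p = 0.563), without a limma value, because no mouse reached 1 FPKM.

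Dgat2, for the last step of triglyceride synthesis, had close means in the 2 groups. Con mice ran from 219 over a median of 264 to 311 FPKM, and Exe mice from 206 over a median of 259 to 322 FPKM. The highest and the lowest mouse, Exe 2 and Exe 3, were both Exe mice. The mean was 263 ± 35.3 FPKM in Con and 262 ± 41.1 FPKM in Exe mice, and the log2 fold change was -0.011 (SE 0.11, 95% interval -0.25 to 0.23, adjusted p = 0.994, exact permutation p = 0.924). Its sign changed when single mice were left out, from -0.073 without Exe 2 to 0.055 without Exe 3. Dgat1, the other enzyme of this step, had 11.0 ± 1.10 FPKM in Con and 10.5 ± 1.60 FPKM in Exe mice, so that Dgat2 was between 18.1 and 29.8 times as high.

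In limma's comparison of log2(FPKM + 1), which took in the 10241 genes with at least 1 FPKM in at least 6 mice, 7 of the 10 genes were tested. Of these 0 passed an adjusted p of 0.05, where 0% of all genes tested did, and 0 passed an unadjusted p of 0.05, where 6.21% of all genes did. None had an absolute log2 fold change over 1. None of the 10 genes had groups that did not overlap, as 0.254% of all genes tested had. Of the 7 genes 6 had a log2 fold change below 0, where 42.5% of all genes did, and their median was -0.099 against 0.016 over all genes. Of all 10 genes 8 were below 0 on this scale, and 7 had a lower mean FPKM in Exe mice. As the signs of Plin5, G0s2 and Dgat2 changed when single mice were left out, these counts of direction are a description only.

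The other genes of the pathway are given from 4 lists of genes in the files, which hold 54 genes of which 48 were tested. Of the 48, 28 had a log2 fold change above 0 and 20 below, with a median of 0.023. Of them 0 passed an unadjusted p of 0.05 (smallest adjusted p from limma 0.848). Of all 10241 genes tested, 5892 were above 0 and 42.5% below, with a median of 0.016, and 6.21% passed the unadjusted p. The counts of direction in each list are a description only, without a set test. Of the droplet coat list 10 of 11 tested genes were above 0 (median 0.071). They ran up to Nsdhl, an enzyme of cholesterol synthesis found on droplets, with 52.3 ± 8.94 FPKM in Con and 60.0 ± 13.7 FPKM in Exe mice (log2 fold change 0.18). The exception, Fabp1, the fatty acid binding protein of hepatocytes, had the highest level of the list with 8958 ± 2464 FPKM in Con and 7947 ± 1042 FPKM in Exe mice (log2 fold change -0.14). Droplet formation and growth had 3 of 9 genes above 0 (median -0.0091), from -0.15 for Fitm1, which helps package triglyceride, to 0.059 for Tmem41b, a lipid scramblase. Its most abundant gene was Vmp1, also a scramblase of the endoplasmic reticulum, with 41.9 ± 4.29 FPKM in Con and 40.6 ± 4.38 FPKM in Exe mice.

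Of the lipolysis list, 8 of 13 tested genes were above 0 (median 0.0029). The values ran from -0.15 for Cpt1a, which lets fatty acids into mitochondria, to 0.32 for Ces1d, a carboxylesterase that hydrolyses triglyceride. Ces1d differed between mice, from 98.4 to 482 FPKM, and its SE was 0.34. Its relative Ces3a had the highest level of the list with 1359 ± 93.4 FPKM in Con and 1290 ± 92.1 FPKM in Exe mice. Glycerolipid synthesis had 7 of 15 genes above 0 (median -0.048). Lpin1, the phosphatidate phosphatase that makes diacylglycerol for Dgat2, was at the lower end with 18.0 ± 6.89 FPKM in Con and 14.7 ± 4.76 FPKM in Exe mice (log2 fold change -0.26, SE 0.26). Acsl1, which activates fatty acids with coenzyme A, was at the upper end with 184 ± 40.2 FPKM in Con and 206 ± 52.1 FPKM in Exe mice (0.15, SE 0.18).

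**Figure D2:**
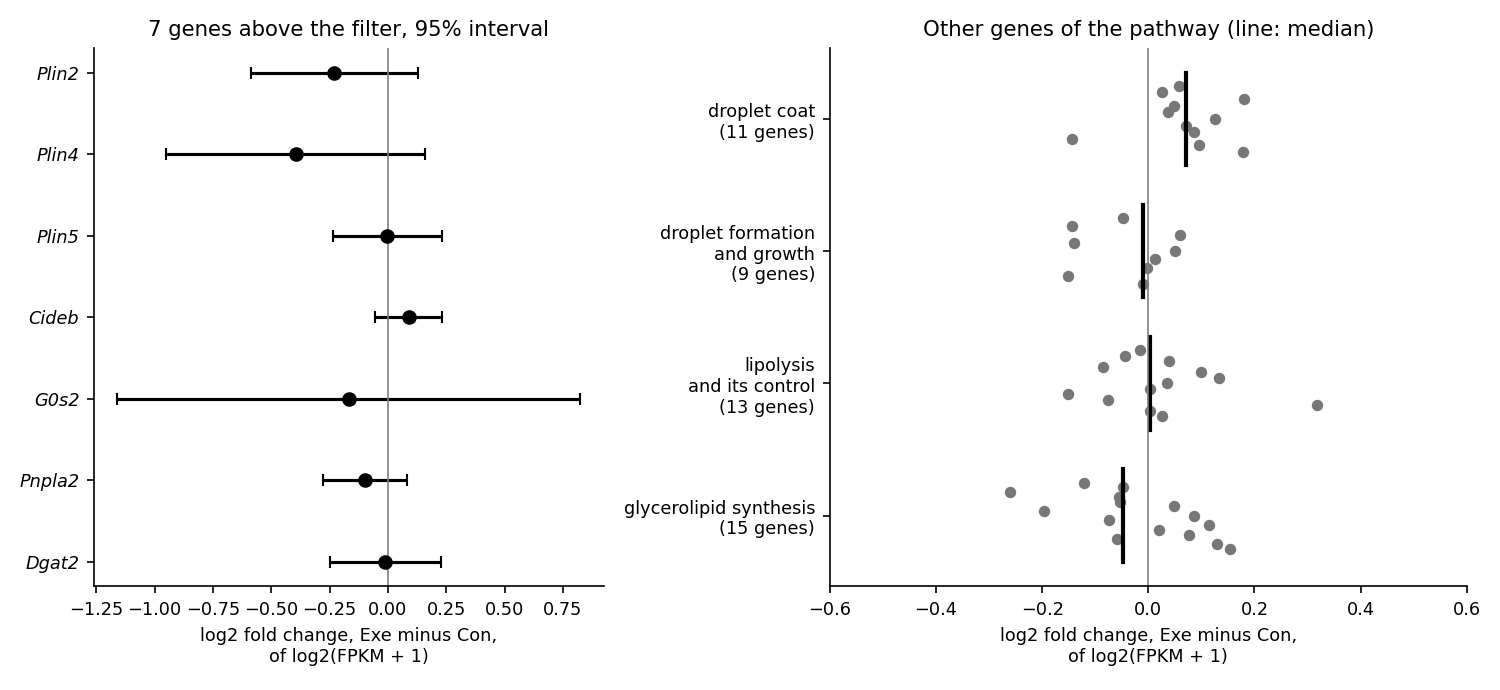
Log2 fold change of log2(FPKM + 1), Exe minus Con, for the 7 genes tested (left, points with the 95% interval) and for the 48 other genes tested, by list (right, 1 point per gene, line at the median). Every interval on the left includes 0, and the widest belongs to G0s2, from -1.16 to 0.82.

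The spread between mice of the same group differed widely among the genes. On the log2(FPKM + 1) scale the within-group SD was 0.93 for G0s2, 0.51 for Plin4, 0.33 for Plin2, 0.21 for both Dgat2 and Plin5, 0.15 for Pnpla2 and 0.11 for Cideb. Ranked among all genes tested, G0s2 was at the 99.6th percentile, Plin4 at the 97.9th, Plin2 at the 93.1st and Cideb at the 28.4th. Over the 12 mice the highest value was 12.7 times the lowest for Plin4, 6.11 times for G0s2 and 2.25 times for Plin2, but 1.31 times for Cideb. The fold of Plin4 runs from a low value, 0.30 FPKM in Exe 3, to 3.81 FPKM in Con 2. The next highest mouse, Con 3, had 1.44 FPKM, so this fold leans on a single mouse and on low values.

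**Figure D3:**
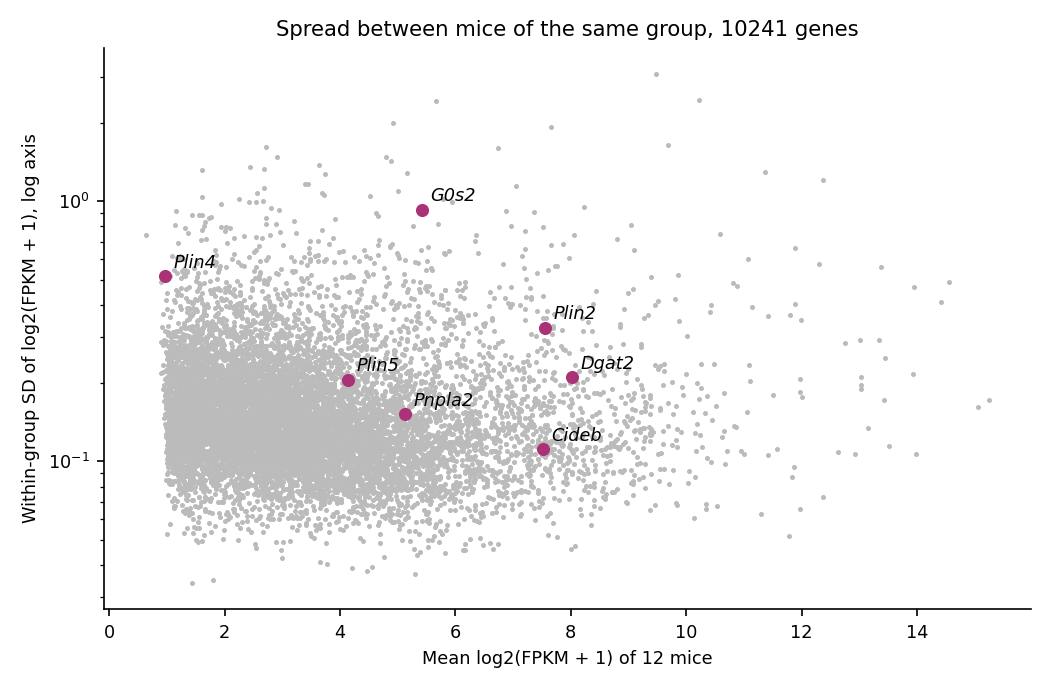
Within-group SD of log2(FPKM + 1) on a log axis against the mean of the 12 mice for the 10241 genes tested (grey) and the 7 genes described (purple, named). G0s2 at 0.93 is the highest of the 7 and at the 99.6th percentile of all genes, and Cideb at 0.11 is the lowest.

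By mouse, Con 2 held the highest value for 3 of the 7 genes, namely Plin2, Plin4 and G0s2, and the lowest for Cideb. Con 5 was above the median of the 12 mice for 6 of the 7 genes. Exe 3 held the lowest value for Plin2, Plin4 and Dgat2, and Exe 2 the highest for Cideb and Dgat2. The high and low mice were thus spread over both groups, and a mouse high for one gene was not high for all.

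**Figure D4:**
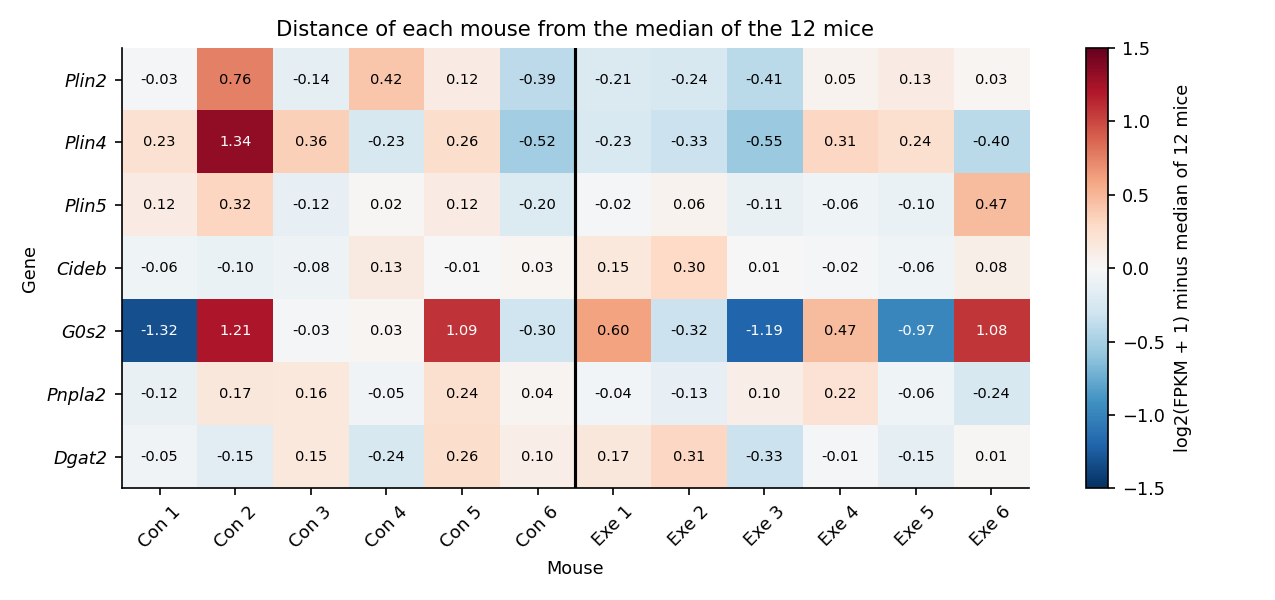
Distance of each mouse from the median of the 12 mice in log2(FPKM + 1), for the 7 genes tested, with Con mice left and Exe mice right of the line (red above, blue below the median). The strongest colours are in the G0s2 row, from -1.32 in Con 1 to 1.21 in Con 2, and in Plin4 of Con 2 at 1.34.

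Relations among the 7 genes were measured over the 12 mice with Pearson's r and Spearman's rho of log2(FPKM + 1), with 100000 permutations and adjustment over the 21 pairs. Of these, 0 passed an adjusted p of 0.05 for both coefficients. The closest pair was Plin2 and Plin4, with r = 0.753 (permutation p = 0.0066, adjusted p = 0.139) and rho = 0.643 (permutation p = 0.0285, adjusted p = 0.299). Without Con 2 and Con 4, the mice farthest from the median of Plin2, r was 0.740. Within groups r was 0.700 in Con (exact permutation p = 0.114) and 0.765 in Exe mice (exact permutation p = 0.103). It was 0.466 without Con 2 and 0.899 without Con 4.

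The next pairs by size of r were Plin4 with Cideb at -0.628 (rho -0.720, permutation p = 0.0321 and 0.0105, adjusted p = 0.332 and 0.219) and Plin5 with G0s2 at 0.570 (rho 0.448, permutation p = 0.0507 and 0.147, adjusted p = 0.332 and 0.371). Plin2 with Plin5 had 0.539 (rho 0.490, permutation p = 0.0701 and 0.110, adjusted p = 0.332 and 0.371) and Cideb with Pnpla2 had -0.521 (rho -0.469, permutation p = 0.0803 and 0.127, adjusted p = 0.332 and 0.371). Without the 2 mice farthest from the median of the gene named first, these were -0.720, 0.191, 0.449 and -0.429. Within groups they were -0.744, 0.448, 0.843 and -0.386 in Con mice and -0.501, 0.686, 0.248 and -0.486 in Exe mice. The exact permutation p of these was 0.0861, 0.383, 0.0417 and 0.444 in Con mice and 0.306, 0.0708, 0.746 and 0.333 in Exe mice. G0s2 and Pnpla2, inhibitor and enzyme, had an r of 0.261 (permutation p = 0.405, adjusted p = 0.567).

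Each of the 7 genes was also set against 4 measures of liver state: Cyp4a14, a PPARA target that the study names, the mean of 8 lipogenic genes, the mean of 8 acute-phase genes, and the clock output gene Dbp. Of these 28 pairs, 0 passed for both coefficients. Cideb and the lipogenic genes passed for r, at 0.818 (permutation p = 0.0015, adjusted p = 0.0431), but not for rho, at 0.727 (permutation p = 0.0093, adjusted p = 0.130). Without Con 2 and Exe 2, the mice with the lowest and highest lipogenic mean, r was 0.501 and no longer held (permutation p = 0.141), so that by this measure it rested on the pair of mice, though leaving out both ends also narrows the range. Leaving out Con 2 alone gave r = 0.802, and leaving out Exe 2 alone gave 0.609. Within groups r was 0.536 in Con (exact permutation p = 0.276) and 0.888 in Exe mice (exact permutation p = 0.0222). Over the fits that each left out a mouse, the adjusted p of r ran from 0.0185 without Con 4 to 0.325 without Exe 2.

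Dgat2 and Dbp had r = 0.755 (permutation p = 0.0051, adjusted p = 0.0713) and rho = 0.797 (permutation p = 0.003, adjusted p = 0.0846). Without Exe 3 and Exe 6, the mice farthest from the median of Dbp, r was 0.789. It was 0.812 within Con (exact permutation p = 0.0458) and 0.796 within Exe mice (exact permutation p = 0.0625). Without Exe 6 the pair passed for both coefficients, with r = 0.843 (adjusted p = 0.0154) and rho = 0.882 (adjusted p = 0.0193). It passed in no other fit that left out a mouse. In those fits the adjusted p of r ran from 0.0505 without Con 4 to 0.197 without Exe 2. The lowest r was 0.647, without Exe 3 (adjusted p = 0.123). With values centred on the group means, 2 pairs passed for both, Dgat2 with Dbp (r = 0.802) and Cideb with the lipogenic genes (r = 0.780).

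The other pairs among the 5 largest by r were Cyp4a14 with Cideb at 0.686 (rho 0.545, permutation p = 0.0151 and 0.0728, adjusted p = 0.141 and 0.390), lipogenic genes with Plin4 at -0.642 (rho -0.469, permutation p = 0.0385 and 0.128, adjusted p = 0.169 and 0.492) and acute-phase genes with Cideb at -0.631 (rho -0.573, permutation p = 0.0250 and 0.0561, adjusted p = 0.169 and 0.390). Without the 2 farthest mice they were 0.321, -0.388 and -0.548. Within groups they were 0.347, -0.962 and -0.693 in Con mice (exact permutation p = 0.489, 0.0042 and 0.136) and 0.812, -0.249 and -0.588 in Exe mice (exact permutation p = 0.0514, 0.679 and 0.228).

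For each of the 7 genes, the genes most like it of all 10241 tested were found by r over the 12 mice. They are given without a test, since they are the extremes of a search over all genes. Dgat2 was most like Tef, a transcription factor of the clock output that is related to Dbp, with r = 0.943 and rho = 0.986. Over the 12 mice with values centred on the group means, r was also 0.943. Tef ran from 23.7 FPKM in Exe 3 to 52.0 FPKM in Exe 2, the mice with the lowest and the highest Dgat2. The next genes were A930033H14Rik (0.926) and Nhlrc2 (0.899). Cideb was most like Suox, sulfite oxidase, with r = 0.974, followed by Cers2, a ceramide synthase, with 0.931 and the fatty acid hydroxylase Cyp4f14 with 0.930. Suox ran from 45.3 to 67.3 FPKM over the mice.

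The genes most like Plin2 were Tmem82 (0.922), Ier5 (0.872) and Vps4a (0.867), and those most like Plin4 were Usb1 (0.908), Ttpal (0.900) and Fbxo45 (0.867). Plin5 was closest to Smurf2 (0.884), Elmod3 (0.877) and Tctn1 (0.858), of which Smurf2 had a rho of only 0.671. G0s2 was closest to Kdm6b (0.881), Sav1 (0.859) and Ubb (0.848), and Pnpla2 to Cyb5r1 (0.883), Tmem181a (0.822) and Tmem170 (0.819). None of the 3 genes nearest to each of the 7 was itself on the list of 10 or on the 4 lists of the pathway.

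As Tef and Dbp belong to the circadian clock, 13 clock genes that passed the filter on low values were set against each of the 7 genes. They were chosen after their values were seen, and no test is given. Dgat2 had an r of at least 0.7 in size with 8 of the 13, Tef and Dbp among them. The share of all genes tested with as many was not counted. The clock genes were not compared with each other, so they are not separate lines of support. With Per3, Nr1d2, Per1 and Per2 r was 0.834, 0.820, 0.763 and 0.710. With Arntl and Clock it was -0.747 and -0.766. With Ciart it was 0.699 and with Hlf 0.425, with Cry1 0.049, with Nr1d1 -0.18 and with Nfil3 -0.38. The median size of r over the 13 genes was 0.747 for Dgat2 and between 0.177 and 0.327 for the other 6 genes. Without Tef and Dbp, which had led to this look at the clock, it was 0.710 for Dgat2 and between 0.103 and 0.339 for the others. The clock was picked through genes that vary with Dgat2, and leaving out these genes does not undo that choice. The contrast with the other 6 genes is therefore a description only. Among the other 6 genes, Plin5 alone reached 0.7 with a clock gene, with 1 of the 13. According to the study's methods animal procedures took place in the dark phase of the day, but the hour for each mouse is not given in the sources used here, and its part in these relations was not tested.

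**Figure D5:**
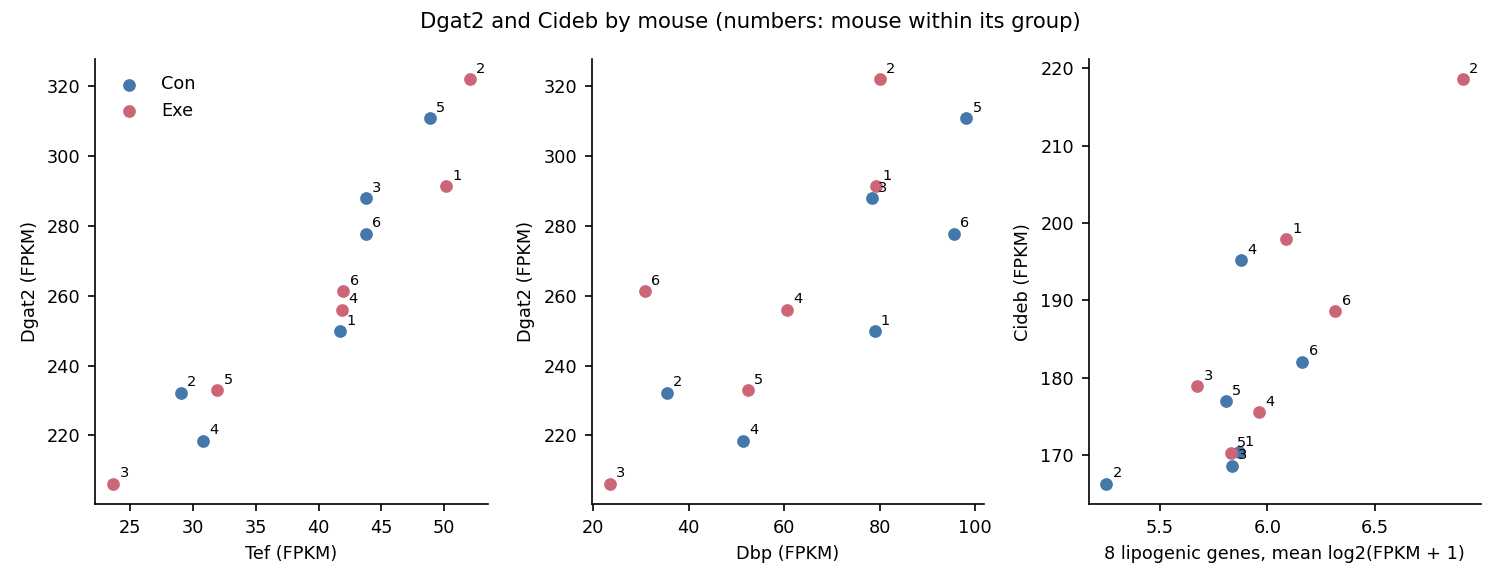
Dgat2 against Tef and against Dbp (FPKM), and Cideb (FPKM) against the mean log2(FPKM + 1) of 8 lipogenic genes, 1 point per mouse, Con in blue and Exe in red, numbered within the group; the axes do not start at 0. Dgat2 rises with Tef over both groups, from 206 FPKM in Exe 3 to 322 FPKM in Exe 2, and in the right panel Exe 2 stands apart from the others.

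Some genes share annotated sequence with others in the RefSeq annotation. Plin2 overlaps the transcribed pseudogene Gm12551, Cidec the RNA gene Gm52871 and Pnpla3 a microRNA gene and a pseudogene, for which no FPKM were used here. Plin4 shares 19 bases with the end of Hdgfl2, which is on the opposite strand and had between 12.4 and 17.0 FPKM. As the counting's use of strand is not stated, reads in shared bases cannot be assigned to either gene.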

How the data were processed

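The authors sequenced liver RNA in paired reads on the DNBseq platform, with a library for each of 6 Con and 6 Exe mice. The authors filtered the reads, aligned them to GRCm39 with HISAT and deposited FPKM per gene. The submitters' notes also name Bowtie2 and mm10. The tool behind the FPKM, its annotation release and any scaling between mice are not given in the sources used here. Since FPKM are not counts, the authors' DESeq was replaced by limma 3.58.1 in R 4.3.3, on log2(FPKM + 1) with a term for the group and a variance trend. Genes with at least 1 FPKM in at least 6 of the 12 mice were tested, with Benjamini-Hochberg adjustment over all. Single genes were compared by an exact two-sided permutation test. Correlations used 100000 permutations with scipy 1.17.1 and numpy 2.4.6, run with pandas 2.3.3 under Python 3.11.15, and figures used matplotlib 3.10.9. The fit and the correlation test were tested on simulated data. All p-values rest on the variation among these 12 mice, and limma's variance also draws on all genes tested.

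The 10 genes and all lists were chosen with earlier results of these data known. Named besides them were, in each list, the genes with the highest level and the highest and lowest log2 fold change, the 3 genes most like each gene, and overlapping genes. The clock genes, Dgat1, Adipoq, Ucp1, Plin1, Lipe, Adrb3, Ckm and Acta1 were named after their values were seen. Of the symbols searched for the lists, Tmt1a, Tmt1b, Ldaf1, Lep, Dio2 and Tnnt3 were not found in the files. Tmt1a, Tmt1b and Ldaf1 are other symbols for Mettl7a1, Mettl7b and Tmem159, which were found and tested. The other brown adipocyte markers besides Ucp1, namely Elovl3 and Cox8b, reached 185 and 0.53 FPKM, and the skeletal muscle markers Myh4 and Mylpf reached 0.01 and 1.60 FPKM. Promoters and gene overlaps came from RefSeq tables of GRCm38.p6, used for sequence and names, in which 16710 of the 16821 gene IDs and 8 of the 10 genes' promoters were found. Alternatives were robust variance moderation, quantile normalization, no filter, a filter of 1 FPKM in all 12 mice, a replicate block, 0.1 as the pseudocount, the ratio of group means, centring on group means, and each mouse left out in turn.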

Additional observations from a re-analysis of the deposited data

Results flagged for a closer look

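In each group of 6 mice, each of the 10 genes was tested for a mouse far from the others by Dixon's ratio, the gap to the nearest mouse divided by the range of the group. The ratio was taken on FPKM, not on log2(FPKM + 1) as in the other tests, and a flag can depend on that scale. Of the 20 sets of 6 values, 4 passed the critical value at 95%. Chance passes about 1 in 20 where values are normally distributed. For Plin4 in the Con group the ratio was 0.681, from Con 2 at 3.81 FPKM. For Plin5 in the Exe group it was 0.752, from Exe 6 at 22.7 FPKM. For Cidea it was 1 in both groups, from Con 5 at 0 among mice at 0.06 FPKM, and from Exe 5 at 0.06 among mice at 0 FPKM. A gene with a single value above 0 gives a ratio of 1 whenever a single mouse differs.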

How the results depend on the processing

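In all fits run, 0 of the genes described passed an adjusted p of 0.05. Among all genes tested none did, except 1 without the filter on low values, D630003M21Rik (adjusted p = 0.0476 from limma), named after its value was seen. Without that filter 1 of the 10 genes, Cidea, was past an unadjusted p of 0.05 (0.0139), as were 5.34% of all genes. With each mouse left out in turn, between 0 and 2 of the genes were past an unadjusted p (2 without Con 6), and between 0 and 1 of the other pathway genes, beside 4.08% to 8.89% of all genes. In the stricter filter Plin4 drops out. Signs changed when single mice were left out: log2 fold changes ran from -0.089 to 0.054 for Plin5, -0.46 to 0.060 for G0s2 and -0.073 to 0.055 for Dgat2, and the difference in mean log2(FPKM + 1) of Cidec from -0.10 to 0.0009. The log2 ratio of group means was 0.0022 for Plin5. Of the pairs with liver state, 2 passed when centred on group means, and between 0 and 1 with mice left out. The cause of these changes was not tested.

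The replicate block gave 0 genes at either threshold and the same log2 fold change for each gene, such as -0.23 for Plin2 (adjusted p = 0.934 from limma). The labels do not say whether same-numbered mice were matched. The correlation of same-numbered mice, over genes, ran from -0.478 to 0.165, and not every mouse was closest to its own number. These values show no common pattern, but they cannot settle whether the mice were matched. In all, 245 values under alternatives kept their direction and side of the threshold, 18 changed sign, 11 counts moved and 2 became stronger. The depth in reads is unknown, and Cidea, Cidec and Pnpla3 lie too near the smallest steps of the table for a fold change.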
